A study of Mus musculus with 12 samples.

Results

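Peaks of open chromatin were followed at 2 genes that encode inhibitor-of-NF-κB (IκB) proteins, Nfkbia and Nfkbiz, in mouse macrophages given lipopolysaccharide (LPS). The regions were all those of the 12 deposited peak lists that lie in a window of 110000 bp on mm9 chromosome 12, from 56550000 to 56660000, for Nfkbia, and a window of 130000 bp on mm9 chromosome 16, from 55770000 to 55900000, for Nfkbiz. Within the windows every region was taken, whatever its values, while the windows themselves were picked with earlier results of these data known. Peaks that overlapped by at least 1 bp were chained into regions, which gave 45 regions, 19 in the Nfkbia window and 26 in the Nfkbiz window, of 115231 in the genome. They hold 325 of 886143 peaks. The borders cut through open chromatin: the regions nearest to the Nfkbia window, chr12:56547671-56548545 and chr12:56660979-56661773, were called in all 12 libraries and lie 1455 and 979 bp outside it. Just inside, chr12:56551245-56551846 and chr12:56653378-56654159 were also called in all 12.

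Nfkbia encodes IκBα, which holds NF-κB dimers in the cytoplasm until signalling from Toll-like receptor 4, the LPS receptor, leads to its breakdown. The gene is itself switched on by NF-κB, so new IκBα returns the factor to the cytoplasm in a negative feedback loop. Nfkbiz encodes IκBζ, a nuclear IκB protein that is made after LPS and that works with NF-κB p50 on secondary response genes such as Il6, Il12b and Lcn2. In the order of genes of the RefSeq annotation of GRCm38.p6, Nfkbia lies between Psma6, a proteasome subunit gene, and Aldoart2, with Prorp, Insm2 and Ralgapa1 next to those. Nfkbiz lies between Zpld1 and Nxpe3, with Alcam and Cep97 beyond them. The build differs from mm9, and no mm9 annotation was used here, so no region was assigned to a promoter, exon or intron or to one of these genes, and the positions below are mm9.

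The promoter of Nfkbia is shown because the gene is a textbook target of NF-κB. The 300 bases run from 250 before to 50 after the RefSeq start and lie on the minus strand of GRCm38.p6 at chr12:55492598-55492897. Capitals mark the match to the κB consensus, the DNA motif of NF-κB.
Nfkbia promoter: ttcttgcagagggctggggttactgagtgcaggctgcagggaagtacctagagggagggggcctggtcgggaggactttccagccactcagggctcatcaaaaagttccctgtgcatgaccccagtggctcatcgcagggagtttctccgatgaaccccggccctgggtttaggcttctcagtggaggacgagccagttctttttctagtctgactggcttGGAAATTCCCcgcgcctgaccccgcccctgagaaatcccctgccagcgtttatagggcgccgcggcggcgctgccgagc
The match, bases 222 to 231 of this stretch, begins 29 bases before the start and was found on the strand opposite to the one printed. Of 32851 promoters of the same length, 8.46% hold a κB match on either strand. A TATAAA match lies on the opposite strand at bases 270 to 275 and overlaps no other match, and 13.6% of promoters hold one. TGANTCA, the AP-1 motif, and the interferon-stimulated response element have no match in this window on either strand, and 7.81% and 3.44% of promoters hold them. No peak was tied to these bases, since the sequence and the peaks are on different builds.

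Per the labels, bone marrow of female C57BL/6 mice, lacking the noncoding RNA lincRNA-EPS (KO) or wild type (WT), was cultured for 9 days in 20% L929 supplement, which supplies the macrophage growth factor. The cells then had LPS at 100 ng/ml for 0, 2 or 6 h, and 50000 cells went into each reaction of ATAC-seq, in which the Tn5 transposase cuts accessible DNA. The 6 groups of genotype and time have 2 libraries each, numbered replicate 1 and 2 by the labels, which do not name separate animals or cultures for them. The p-values therefore rest on the spread between libraries, which may be technical. The study asked whether lincRNA-EPS, named in its title as a brake on inflammation, affects chromatin during the LPS response. The way the knockout was made was not given in the sources used here, and macrophage marker genes were not checked because no mm9 annotation was used.

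Peak names inside the 4 lists labelled 2 h say 1 h, so the time called 2 h here may be 1 h. Library totals ran from 54771 to 91610 peaks, with 63572.5 ± 5911 at 0 h, 73640 ± 2825 at 2 h and 84323.5 ± 5517 at 6 h (SD, n = 4). Read numbers were not given in the sources used here. The lowest local background of each library, in reads recovered from the deposited values, stood in for depth and ran from 1.43 in KO 0 h replicate 2 to 3.35 in KO 6 h replicate 1. A missing call in a shallow library can be an open region below the calling limit. In bulk cells, a weaker peak in fewer open cells or in less open cells cannot be told apart.

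The strongest region of each window was picked among those called in all 12 libraries. Its calls before and after LPS follow from that choice. Regions gained by 6 h made up 4.44% of the 45, near the 5.54% of all regions. At 6 h against 0 h, 1 of 15 regions called in every library changed in rank, where 6.01% of all such regions rose and 6.57% fell. In all 12 libraries 15 of the 45 regions (33.3%) were called, 8 at Nfkbia and 7 at Nfkbiz, against 37.2% of all regions. A further 25 were called in 2 to 11 libraries and 5 in 1 library. The Nfkbia window had 10.5 ± 1.29 regions called per library at 0 h, 10.75 ± 1.71 at 2 h and 14.75 ± 1.71 at 6 h. The Nfkbiz window had 12.75 ± 2.22 at 0 h, 13.75 ± 0.957 at 2 h and 16.75 ± 2.06 at 6 h (SD, n = 4 libraries each). These numbers move with the library totals given above, and the part of the totals in them was not tested.

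**Figure D1:**
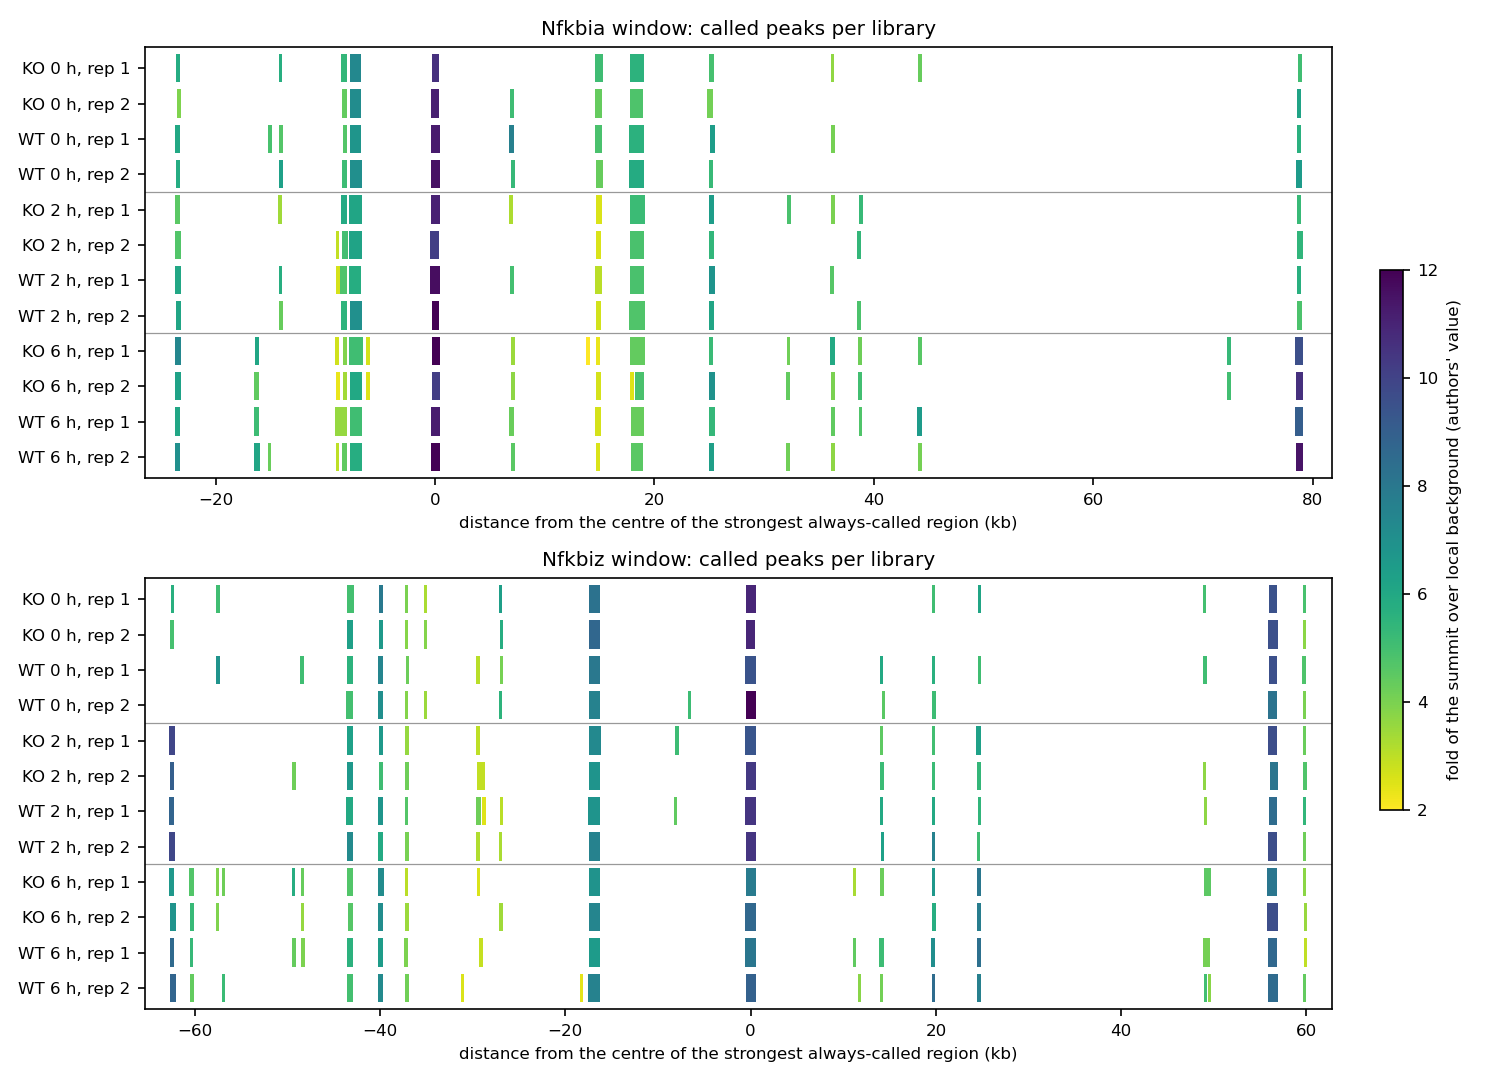
Calls and strength of the 45 regions along both windows: the x axis is the distance in kb from the centre of each window's strongest region called in all 12 libraries, rows are libraries grouped by time with KO above WT, and each mark is a called peak coloured by the authors' fold of summit over local background. The 15 regions called in every library form unbroken columns, and the other 30 are in some rows only.

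The strongest region at Nfkbiz was chr16:55838489-55839676, 1188 bp wide. The authors' −log10 q of its strongest peak at 0 h was 62.1 and 49.3 in the KO libraries and 50.7 and 84.8 in the WT libraries. At 2 h it was 86.9 and 104 in KO and 99.3 and 88.6 in WT. At 6 h it was 77 and 71.7 in KO and 68.2 and 78.4 in WT. All 4 libraries at 2 h stood above the other 8, and KO and WT overlapped at each time. Because −log10 q grows with depth, regions were compared by percentile, the rank of the strongest peak's −log10 q among the 42811 regions called in all 12 libraries, within each library. In percentile this region averaged 96.3 ± 1.35 at 2 h and 89.6 ± 7.33 at 0 h (SD, n = 4), where WT replicate 1 at 79.3 was the lowest, and the ranges overlapped (exact permutation test, p = 0.0457, Benjamini-Hochberg adjusted p = 0.703). Ranked by the authors' fold instead, the difference of 6.66 percentile points turned to -6.04. That fold, of summit over local background, was 7.89 and 8.66 in KO and 8.07 and 8.92 in WT at 6 h, and 10.9 and 10.9 in KO and 9.43 and 12.2 in WT at 0 h. Each 6 h library was thus below each 0 h library in fold.

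The strongest region at Nfkbia was chr12:56574520-56575484, 965 bp wide. Its −log10 q at 0 h was 36.4 and 36.2 in KO and 49.0 and 58.7 in WT, at 2 h 59.9 and 48.6 in KO and 71.9 and 54.1 in WT, and at 6 h 69.7 and 43.2 in KO and 54.5 and 60.4 in WT. Both KO libraries at 0 h, the shallowest of the 12, were below both WT libraries, and the genotypes overlapped at 2 and 6 h. Its fold was 11.3 ± 0.759 over all 12 libraries, and its percentile was 82.3 ± 4.89 at 6 h and 78.6 ± 6.66 at 0 h (adjusted p = 0.514, exact permutation test). The other strong regions were 2 at Nfkbia, chr12:56567149-56568385 with a mean −log10 q of 42.6 and chr12:56592703-56594124 with 45.6, and 2 at Nfkbiz, chr16:55821556-55822875 with 61.8 and chr16:55894810-55896063 with 60.1 (means over 12 libraries). None of these 4 passed the test of percentile in any comparison. The lowest adjusted p was 0.0987 (exact permutation test), for chr16:55821556-55822875 at 6 h against 0 h, with a difference of -7.45 percentile points.

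The one region whose percentile changed past the threshold by 6 h was chr12:56589607-56590274 at Nfkbia, 14.9 kb from that window's strongest region, and it fell. Its percentile at 0 h was 69.5 and 56.5 in KO and 58.6 and 49.0 in WT. At 2 h it was 10.2 and 10.7 in KO and 27.8 and 13.1 in WT, and at 6 h 5.33 and 12.5 in KO and 17.3 and 8.45 in WT. All 8 libraries with LPS lay below all 4 without it, in both genotypes. The percentile averaged 10.9 ± 5.17 at 6 h and 58.4 ± 8.44 at 0 h (SD, n = 4), a difference of -47.5 percentile points (exact two-sided permutation test with time labels exchanged within genotype, p = 0.00173, adjusted p = 0.0287 over the 42811 regions). Of those regions 6.01% rose and 6.57% fell by 6 h, so 1 of 15 is near the background. At 2 h the mean was 15.4 ± 8.35, a difference of -43.0 from 0 h that did not pass (exact permutation test, p = 0.00815, adjusted p = 0.508). No region of the genome passed at 2 h against 0 h in this test (0 of 42811, background 0%), while 3001 had an unadjusted p under 0.05 and limma called 308.

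The local background of the same peak was higher at 6 h. Local background, the coverage that MACS2 sets a peak against, was recovered from the deposited fold and p and divided by the library's background coverage, a measure chosen after the data were seen. At chr12:56589607-56590274 it was 10.5 and 10.5 in KO and 7.97 and 7.84 in WT at 0 h, 12.5 and 12 in KO and 13.1 and 13.8 in WT at 2 h, and 13.1 and 12.8 in KO and 13.1 and 13.8 in WT at 6 h. The 8 LPS libraries were above the 4 others, the opposite direction to the percentile. The −log10 q is computed from the summit coverage against this same background. A higher background lowers it by construction, so the opposite direction is not a separate result. The mean local background was 13.2 ± 0.402 times the library background at 6 h and 9.22 ± 1.52 at 0 h, a log2 difference of 0.44 after centring each library on the median of the 42811 regions (adjusted p = 0.0317, exact permutation test). That call is lost without WT 0 h replicate 1 or any one of the KO libraries at 0 h and 6 h (adjusted p up to 0.0835). The summit coverage itself, on the same scale, was 31.1 and 34.5 in KO and 35.6 and 36.2 in WT at 6 h, and 55.9 and 48.4 in KO and 40.4 and 35.1 in WT at 0 h. Over both genotypes it fell by 0.37 on the log2 scale (adjusted p = 0.0377, exact permutation test), with 1 WT library at 0 h inside the range of the 6 h libraries. In KO both 6 h values were below both 0 h values, while in WT they lay between the 0 h values. Whether the change in summit coverage differed between the genotypes was not tested. The percentile call is lost without WT 2 h replicate 1 (adjusted p = 0.0521), WT 6 h replicate 2 (0.0627) or KO 6 h replicate 1 (0.0578). Ranked by fold, the difference was -8.27 percentile points (adjusted p = 0.0409), and ranked by thinned summit coverage it was -8.72 (adjusted p = 0.161).

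**Figure D2:**
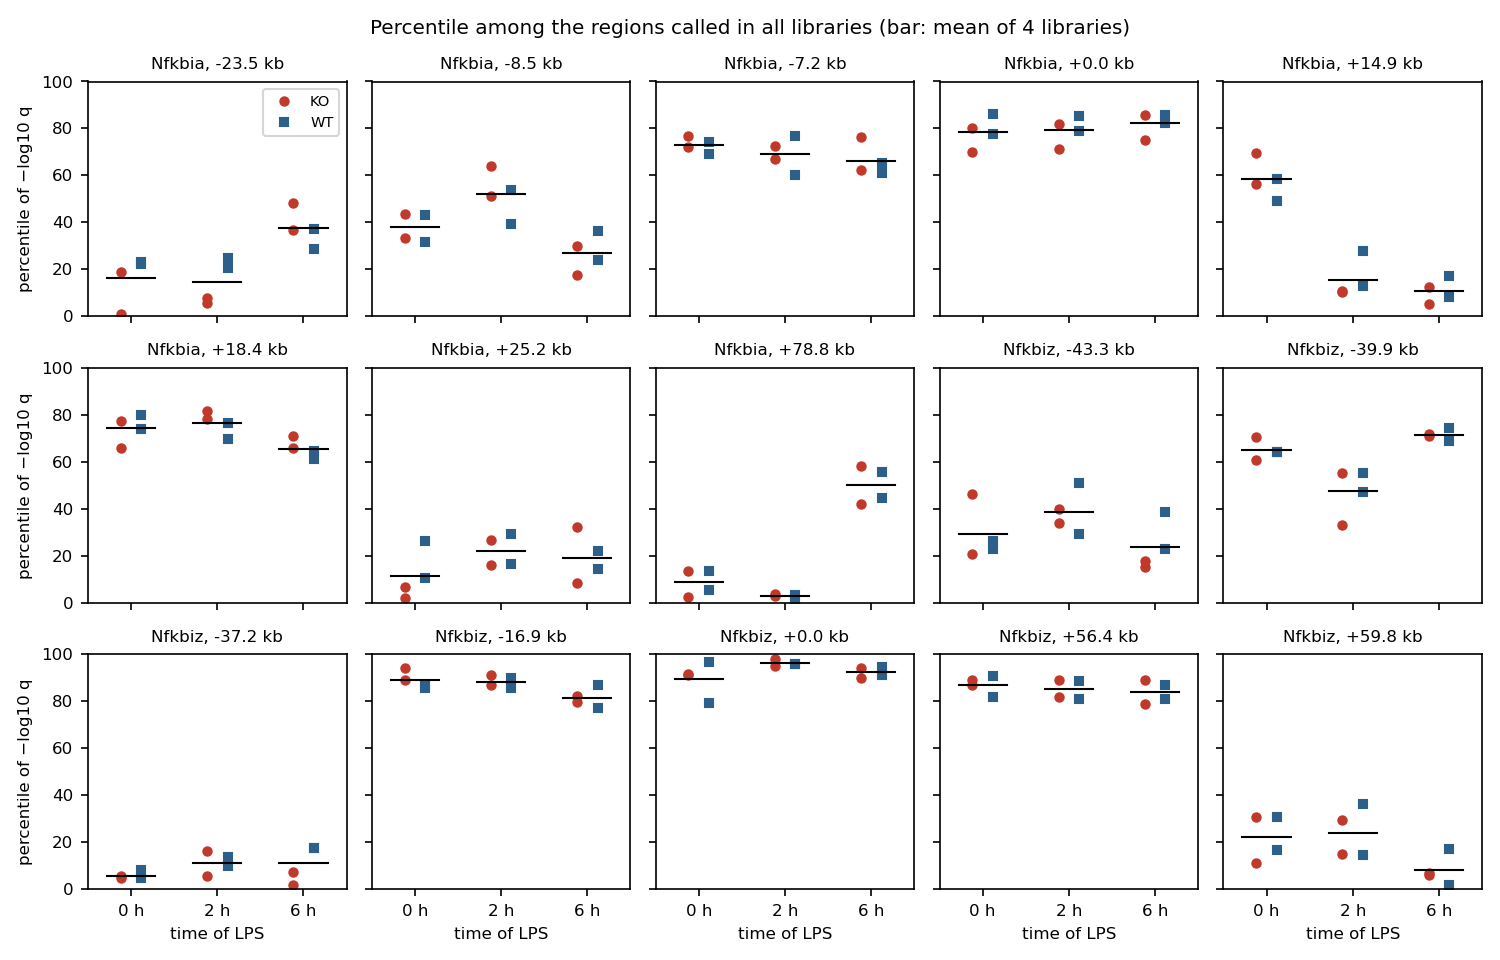
Percentile of the strongest peak's −log10 q, among 42811 regions called in all 12 libraries, for the always-called regions of both windows. The x axis is the time of LPS in h, the y axis the percentile, each point is a library, coloured by genotype, and bars are means of 4 libraries. The region 14.9 kb from the strongest Nfkbia region was at 49.0 to 69.5 at 0 h and at 27.8 or below with LPS, and the one 78.8 kb from it was at 42.0 to 58.4 at 6 h and at 13.5 or below before.

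The region at the far end of the Nfkbia window ranked higher at 6 h than at 2 h. At chr12:56653378-56654159, 78.8 kb from the strongest region, the −log10 q was 6.05 and 8.08 in KO and 8.82 and 12 in WT at 0 h, and 8.50 and 9.53 in KO and 10.5 and 6.37 in WT at 2 h. At 6 h it was 31.9 and 31.1 in KO and 26.5 and 33.6 in WT. All 4 libraries at 6 h stood above the other 8. In −log10 q, which grows with depth, KO was below WT at 0 h, and the genotypes overlapped at 2 and 6 h. The KO libraries at 0 h are the shallowest. In fold the genotypes overlapped at 0 h, with 5.05 and 6.18 in KO and 5.67 and 6.56 in WT. The fold averaged 10.2 ± 1.08 at 6 h and 5.87 ± 0.655 at 0 h, and the summit coverage 17.4 ± 2.99 times library background at 6 h, 6.86 ± 0.322 at 2 h and 8.40 ± 1.13 at 0 h (SD, n = 4). Its percentile of 50.2 ± 8.04 at 6 h, against 2.69 ± 1.20 at 2 h, passed the test (difference 47.5, adjusted p = 0.0492, exact permutation test). Against 8.64 ± 5.73 at 0 h the difference of 41.5 did not pass (exact permutation test, p = 0.0084, adjusted p = 0.0568), although the ranges did not overlap, and limma on normal scores gave an adjusted p of 0.000553. The permutation test exchanges all times, so a region low at both 0 h and 2 h cannot come near its smallest p at 6 h against 0 h. The comparison of 6 h with 2 h was added after the data were seen, and the call is lost whichever library is left out. In that comparison no region of the genome passes with any library left out, so the loss is not particular to this region. Its difference stayed at 45.2 to 50.3 percentile points. With all 12 libraries, 0.829% of regions rose and 0.675% fell in that comparison.

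A region at Nfkbiz also ranked higher at 6 h than at 2 h. The percentile of chr16:55798866-55799500 at 0 h was 70.7 and 60.8 in KO and 64.3 and 64.0 in WT, at 2 h 55.1 and 33.2 in KO and 55.3 and 47.0 in WT, and at 6 h 71.7 and 70.8 in KO and 68.8 and 74.3 in WT. Every library at 2 h was below every library at 0 h and at 6 h. The mean was 71.4 ± 2.27 at 6 h and 47.7 ± 10.4 at 2 h, a difference of 23.7 (adjusted p = 0.0370, exact permutation test). That call is lost whichever library is left out, as is every call of the genome in this comparison. The difference of -17.3 between 2 h and 0 h did not pass (exact permutation test, p = 0.0393, adjusted p = 0.679). At Nfkbia chr12:56565886-56567059 averaged highest at 2 h. Its percentile was 43.5 and 33.5 in KO and 31.6 and 43.3 in WT at 0 h, 63.9 and 51.0 in KO and 39.4 and 53.9 in WT at 2 h, and 30.0 and 17.8 in KO and 23.8 and 36.4 in WT at 6 h. The 6 h and 2 h values did not overlap, and the difference of -25.1 missed the threshold (p = 0.00247, adjusted p = 0.0634, exact permutation test). At chr12:56551245-56551846 the percentile was 37.6 ± 8.01 at 6 h and 16.4 ± 10.3 at 0 h, without overlap (adjusted p = 0.0875, exact permutation test, and 0.0485 by limma). Of the 4 always-called regions not yet described, none stood above a percentile of 51.2 in any library. Over the 12 libraries the percentile ran from 2.11 to 32.1 at chr12:56599834-56600521, from 15.4 to 51.2 at chr16:55795410-55796239, from 1.73 to 17.4 at chr16:55801674-55802160 and from 1.91 to 36.2 at chr16:55898576-55899102, and none of them passed in any comparison. Over the 15 regions the median difference in percentile was -3.09 for 6 h against 0 h, against -0.85 over all 42811 regions. Of the 15, 3 had 6 h and 0 h values that did not overlap, 2 of them higher and 1 lower, where 11.4% and 12% of all regions did so. Between 2 h and 0 h 2 did not overlap, both lower at 2 h, where 3.72% of all regions were higher and 3.04% lower. Between 6 h and 2 h 3 were higher and 2 lower without overlap, where 11.6% and 12% were.

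Several always-called regions had a higher local background at 6 h, a value that was not separated from the coverage of the peak itself. Local background was higher at 6 h than at 0 h past the threshold at 7 of the 15 regions and lower at 2, against 12.1% and 18.7% of all regions (exact permutation test, centred). Neighbouring regions share part of the stretch this value is read from, so the 7 are not independent. The 7 became 4 without WT 0 h replicate 1, without KO 0 h replicate 1 or without KO 0 h replicate 2, and in each case the calls lost were those of chr12:56551245-56551846, chr12:56589607-56590274 and chr12:56653378-56654159. The largest differences were at the strongest Nfkbiz region, chr16:55838489-55839676, with 5.94 ± 0.623 times library background at 6 h and 3.77 ± 0.422 at 0 h (log2 difference 0.56, adjusted p = 0.00989), and at chr16:55801674-55802160, with 4.67 ± 0.417 at 6 h and 3.03 ± 0.292 at 0 h (0.53, adjusted p = 0.00659). At the strongest Nfkbiz region the values were 4.24 and 3.98 in KO and 3.32 and 3.53 in WT at 0 h, 5.27 and 4.91 in KO and 4.59 and 5.30 in WT at 2 h, and 5.27 and 6.34 in KO and 5.57 and 6.58 in WT at 6 h. No library with LPS was as low as one without, while the percentile of the same region did not pass in either comparison. At Nfkbia the neighbours chr12:56565886-56567059 and chr12:56567149-56568385 had 7.28 ± 0.185 and 7.27 ± 0.246 at 6 h, and 5.17 ± 0.583 and 5.19 ± 0.477 at 0 h (adjusted p = 0.00848 for each). The rest of the 7 were chr12:56551245-56551846, chr12:56589607-56590274 and chr12:56653378-56654159, and the last of these was at the library floor of 1 in all 8 libraries at 0 and 2 h. The 2 that were lower were neighbours at the far end of the Nfkbiz window, chr16:55894810-55896063 with 4.25 ± 0.329 at 6 h and 4.60 ± 0.235 at 0 h, and chr16:55898576-55899102 with 4.16 ± 0.279 at 6 h and 4.52 ± 0.272 at 0 h. Without centring, these 2 did not pass (log2 differences -0.12 for each).

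**Figure D3:**
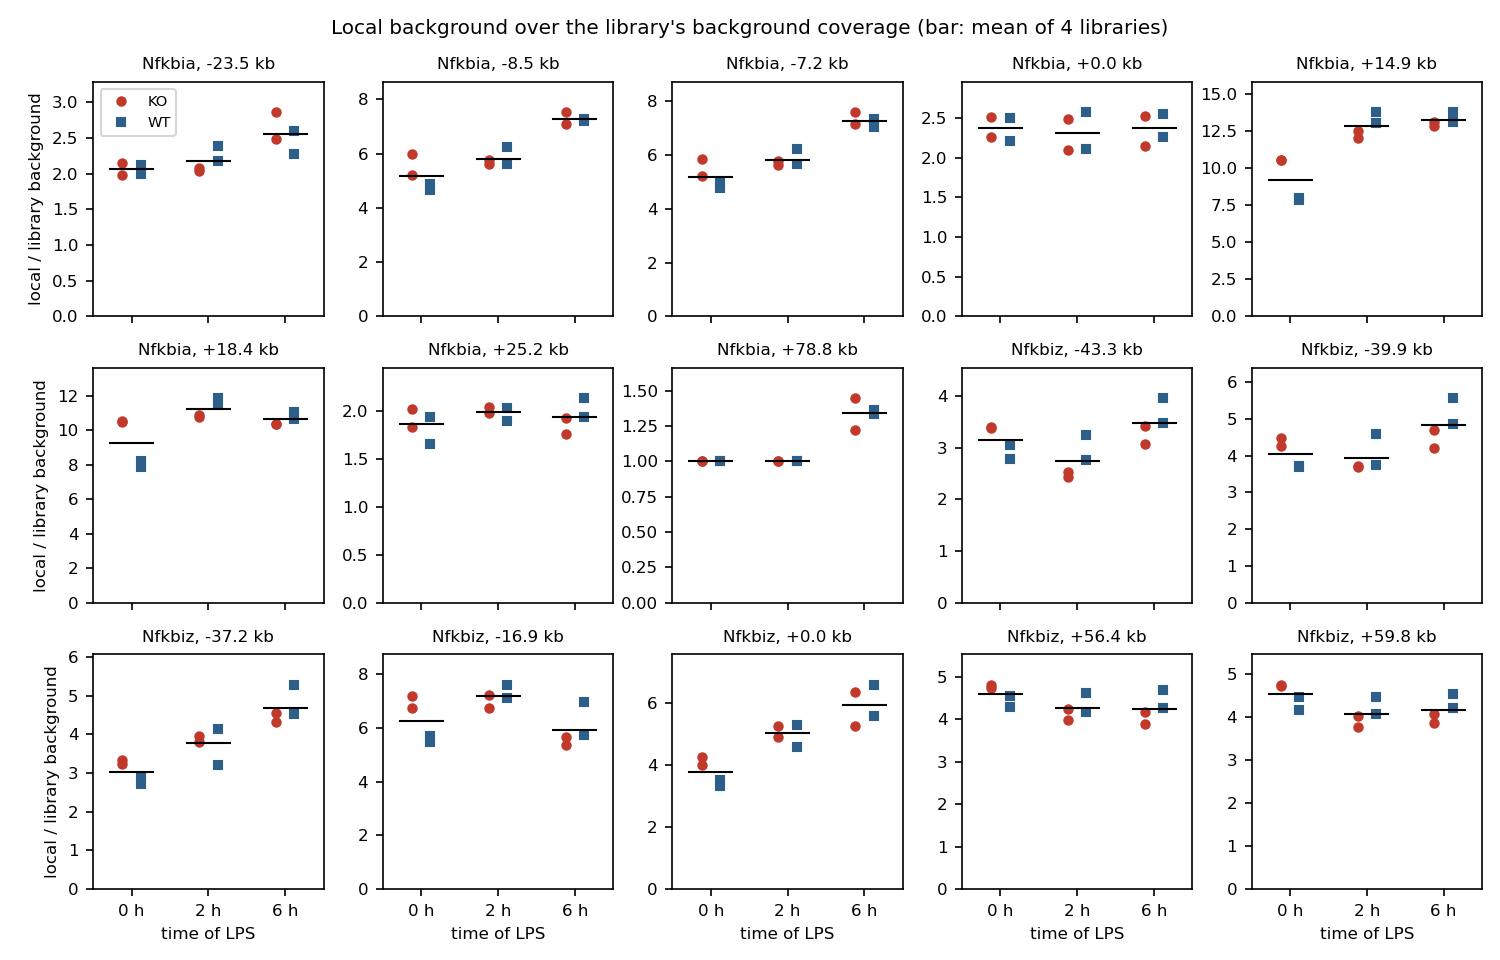
Local background of the always-called regions over the background coverage of the library, with the time of LPS in h on the x axis, a linear y axis from 0, a point per library coloured by genotype and bars at the means of 4 libraries. The strongest Nfkbiz region had 5.94 ± 0.623 at 6 h and 3.77 ± 0.422 at 0 h (SD, n = 4).

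Local background at 2 h against 0 h passed at 0 of the 15 regions and 0 of 42811 (0%), while 2979 had an unadjusted p under 0.05 and limma called 871. At 6 h against 2 h it passed at 1 region in each direction, higher at chr12:56653378-56654159 (adjusted p = 0.0407) and lower at chr16:55821556-55822875 with 5.92 ± 0.702 at 6 h and 7.16 ± 0.352 at 2 h (adjusted p = 0.0425, exact permutation test), against 6.09% and 5.83% of all regions. Summit coverage at 6 h against 0 h passed at 2 of 15, lower at chr12:56589607-56590274 and higher at chr16:55801674-55802160 with 18.3 ± 4.03 at 6 h and 13.6 ± 1.48 at 0 h (adjusted p = 0.0477, exact permutation test), where 8.48% of all regions rose and 15.3% fell. At 6 h against 2 h it passed at chr12:56653378-56654159 (log2 difference 1.29, adjusted p = 0.0441) and at chr16:55798866-55799500 with 36.3 ± 4.87 at 6 h and 25.9 ± 3.86 at 2 h (0.45, adjusted p = 0.0382), where 1.7% of all regions rose and 1.27% fell. Each of these calls in summit coverage is lost when any of 8 to 12 single libraries is left out, and each call of local background at 6 h against 2 h when any of 10 is. For summit coverage at 6 h against 2 h, no region of the genome passes with any library left out.

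Of the 30 regions not called in every library, some were called mainly with LPS. At the low end of the Nfkbiz window, chr16:55776334-55777052 was called in every library with LPS, and before LPS in the KO libraries only. Its −log10 q at 0 h was 7.71 and 5.23 in KO, and neither WT library at 0 h called it. At 2 h it was 34.9 and 33.7 in KO and 29.9 and 29.5 in WT, and at 6 h 30.9 and 25.6 in KO and 38.2 and 37.8 in WT. All 8 LPS libraries were thus above both KO libraries at 0 h. The width of the peak was 233 and 217 bp in KO at 0 h and 497 to 685 bp in the LPS libraries, and its fold was 5.67 and 4.95 in KO at 0 h, 9.93 and 9.02 in KO and 8.81 and 9.87 in WT at 2 h, and 6.67 and 6.88 in KO and 8.57 and 8.79 in WT at 6 h. It is the 1 region of the 45 called in KO only at 0 h, a pattern that 0.505% of all regions have. The KO libraries at 0 h are the shallowest of the 12, at background coverages of 1.77 and 1.43 against 2.35 and 2.51 in WT. Thinning to equal background coverage left both KO calls in place. It only removes peaks and takes the library at 1.43 as its level, so it could not have added a WT call and does not test this pattern. Differences between 2 and 2 libraries were not tested.

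By the rule of 4 of 4 libraries against 0 of 4, 1 region in each window was gained by 6 h (4.44% of the 45, against 5.54% of all regions). Neither had a call at 2 h, where an open region below the calling limit would also be missing. At Nfkbia, chr12:56558470-56559022 had a −log10 q of 16.1 and 6.31 in KO and 9.65 and 12 in WT at 6 h, with no call at 0 or 2 h. At Nfkbiz, chr16:55778502-55778992 had 18.5 and 16.9 in KO and 17.5 and 12.2 in WT at 6 h, with no call at 0 or 2 h, and it lies next to the early region just described. Both were present in KO and WT. With equal numbers of peaks per library, 0 regions were gained at Nfkbia, and without WT 6 h replicate 1 or replicate 2 there were 3 and 2. No region of the 45 was lost by 6 h (0.127% of all regions), gained by 2 h (0.789%) or lost by 2 h (0.00434%).

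**Figure D4:**
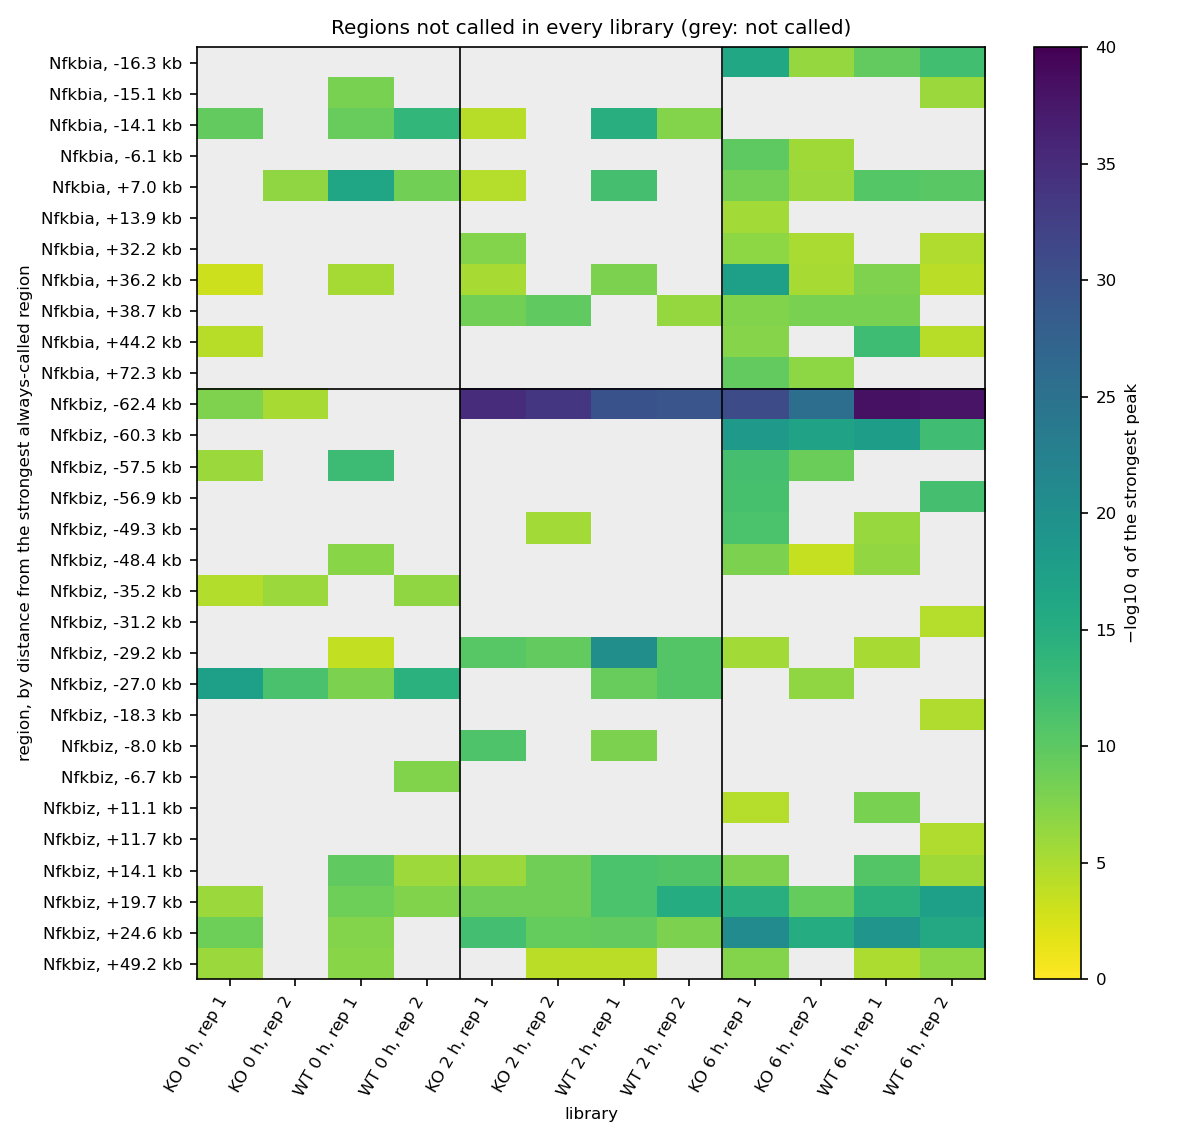
The −log10 q (colour) of the strongest peak of the 30 regions not called in every library, with a row per region, named by its distance in kb from the strongest region of its window, a column per library, KO left of WT at each time, and grey where the library has no peak. The Nfkbiz row at -62.4 kb is coloured in the 2 KO libraries at 0 h, grey in the 2 WT libraries at 0 h and at 25.6 to 38.2 in the 8 LPS libraries.

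Other partly called regions were called at some times and not at others without meeting the rule, and 3 of those that follow, chr16:55809386-55810471, chr12:56560721-56561081 and chr16:55863460-55863980, were chosen after their values were seen. At Nfkbiz, chr16:55811903-55812295 was called in all 4 libraries at 0 h, with a −log10 q of 17.5 and 11.5 in KO and 7.90 and 14.5 in WT, in both WT libraries at 2 h with 9.29 and 10.7 and in KO replicate 2 at 6 h with 6.64. It is the 1 region called in WT only at 2 h (1.34% of all regions), and 1 of 4 libraries had it at 6 h. Its neighbour chr16:55809386-55810471 had a peak in all 4 libraries at 2 h, with 10.4 and 9.66 in KO and 20.3 and 10.7 in WT, in WT replicate 1 at 0 h with 3.70, and in 1 KO and 1 WT library at 6 h with 5.60 and 5.19. These neighbours thus had their most calls at 0 h and at 2 h. At Nfkbia, chr12:56560721-56561081 was called at 0 h with 9.62 in KO replicate 1 and with 9.22 and 13.6 in WT, at 2 h with 4.27 in KO replicate 1 and with 14.8 and 7.46 in WT, and in no library at 6 h. On the other side of the strongest Nfkbiz region, chr16:55863460-55863980 was called in all 8 LPS libraries and in replicate 1 of each genotype at 0 h. Its −log10 q at 6 h was 20.7 and 15.2 in KO and 19.2 and 15.9 in WT, against 8.82 in KO and 7.38 in WT at 0 h, so each 6 h library was above each other library that called it.

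No difference between KO and WT libraries passed a test at either gene. No region of the 45 was called in all 6 KO and no WT libraries (0.00174% of all regions) or the reverse (0.00868%). Within a time, KO alone called none at 2 h (1.22%) and 3 at 6 h (1.91%), which were chr12:56568700-56569013 with a −log10 q of 9.94 and 5.70, chr12:56647187-56647457 with 9.69 and 6.74 and chr16:55781356-55781731 with 11.8 and 8.97. KO 6 h replicate 1 is the library with the most peaks (91610) and the highest background coverage (3.35). KO 6 h replicate 2, which also called all 3, has 78766 peaks and a background coverage of 2.17. The WT libraries at 6 h have 81749 and 85169 peaks, at 2.67 and 2.18. The part of depth in these calls was not tested. After thinning to equal background coverage or with equal numbers of peaks 0 regions had this pattern. Without WT 6 h replicate 1 there were 5. WT alone called no region at 6 h (1.2%), or 4 when WT 6 h replicate 1 was left out and 3 when KO 6 h replicate 1 was. At 0 h WT alone called 1 region, chr16:55852956-55853486 at 9.72 and 5.88 (2.45% of all regions), or 2 to 4 without any one of the 0 h libraries. The percentile differed between KO and WT libraries by -6.38 to 3.33 points over the 15 always-called regions, with adjusted p from 0.799 to 0.991 and 0 at an unadjusted p under 0.05 (exact permutation test with genotype labels exchanged within time). None of 42811 regions passed (0%), 2720 had an unadjusted p under 0.05, and limma called 2, neither of them among the 15. The smallest p this design allows is 0.00926, so 7928 regions would have had to reach it for any to pass.

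The smallest p that a test of the LPS response between the genotypes allows here is 0.0556, so no region could pass it. The KO change minus the WT change in percentile ran from -23.2 to 22.1 points over the 15 regions at 2 h and 6 h (exact permutation test, lowest p 0.111). Local background at 0 h, after centring, was higher in both KO libraries than in both WT libraries at 8 of the 15 regions and lower at 2, where 23.5% and 21.1% of all regions had these orders. At 2 h it was higher at 4 and lower at 3, where 22.5% and 18.9% were. At 6 h it was higher at 1 and lower at 8, where 17.2% and 21.5% were. The change of these numbers with time was not tested. The 2 KO libraries at 0 h are the shallowest, and the part of depth in the order at 0 h was not tested. Over all times neither local background nor summit coverage passed between KO and WT at any of the 15 regions by the exact permutation test, which also called 0 of 42811 regions (0%) for either measure, with 2952 and 2781 at an unadjusted p under 0.05, while limma called 68 and 38.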

How the data were processed

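Bowtie2 2.1.0, Picard, MACS2 and the mm9 build are named, per the submitters' processing notes. Settings, duplicate handling and the Tn5 offset were not given in the sources used here. The authors deposited 1 MACS2 peak list per library, whose names show calling on each library alone. Each list gives, per peak, a fold ratio, summit to local background (column 7), −log10 p-values and −log10 q-values (column 9) and a score the authors deposited with them, 10 times the −log10 q. All served to describe and rank peaks within a list. The genome windows and their regions were chosen with earlier results of these data known.

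Peaks sharing 1 bp were chained. A region was gained or lost when called in 4 of 4 libraries at one time and 0 of 4 at the other, and genotype calls within a time needed 2 of 2 and 0 of 2. Percentiles of −log10 q among the 42811 regions called in all 12 libraries were set against each other over all these regions in exact permutation tests, two-sided, with the 3 times exchanged within genotype (8100 arrangements, smallest p 0.000247) or genotypes within time (216 arrangements), and Benjamini-Hochberg adjustment at 0.05. For time, 212 regions at the smallest p are needed before any passes. Where a region changes at 1 time only, exchanging the labels of the unchanged times leaves its difference about as large. Its p then stays well above the smallest p, so the test has little reach for such a region. A percentile also moves when other regions move. A percentile shows the order of peaks, not an absolute amount.

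The fold is (coverage + 1) / (background + 1) and the deposited p is a Poisson probability of both, which gave the summit coverage and local background back, with a match to the deposited log10 p within 0.001 for 100% of the peaks. Both, over the lowest local background of the library, were tested in the same way on the log2 scale, centred on the median. These 2 measures and the comparison of 6 h with 2 h were added after the data were seen. Alternatives were a −log10 q of at least 5, a 50% overlap of the shorter peak, equal peak numbers (54771 per list), thinning to the lowest background coverage with a −log10 p of at least 4.28, ranking by fold, by the mean of a region's peaks or by thinned coverage, the replicate number as a block, limma 3.58.1 and leaving out each library. Limma took normal scores of the percentiles and the centred log2 values of the 2 added measures. Same-numbered libraries did not deviate together over the 42811 regions. The tests were checked on simulated data. Work was done in Python 3.11.15 (numpy 2.4.6, pandas 2.3.3, scipy 1.17.1) and R 4.3.3. Named are the regions called in all libraries, those gained or lost by 2 or 6 h, and those called in both libraries of one genotype and neither of the other at 1 time. Motifs were searched on both strands. Promoter sequence came from RefSeq, GRCm38.p6, where 1 of the 2 genes matched by symbol. There are no counts behind a call, so it has no counting interval, and the number of libraries limits the precision.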

Additional observations from a re-analysis of the deposited data

Results flagged for a closer look

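One value of the 15 always-called regions stood apart within its group of 4 libraries. At 2 h, the percentile of chr12:56589607-56590274 at Nfkbia was 27.8 in WT replicate 1 and 10.2 to 13.1 in the other 3 libraries, and the gap to the nearest was 0.836 of the whole range, above Dixon's critical value for groups of that size. Of 45 such groups (15 regions at 3 times) 1 stood apart, and chance gives about 1 in 20. That library does not enter the difference of this region at 6 h against 0 h, which stays at -47.5 percentile points without it. The call is lost without it (adjusted p = 0.0521, exact permutation test), and also without WT 6 h replicate 2 or KO 6 h replicate 1. Leaving it out lowers the arrangements from 8100 to 2700 and the calls over the genome from 5386 to 3875.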

How the results depend on the processing

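Of the calls, the count of regions called in all libraries was within 1.5 times its value in each setting. With a −log10 q of at least 5, 1 region was gained by 2 h at Nfkbiz and 2 were called in WT only at 2 h. With equal peak numbers, 0 were gained by 6 h at Nfkbia, 1 was lost by 6 h and 1 gained by 2 h at Nfkbiz, and 1 at 2 h and 0 at 6 h were KO only, while 2 at 2 h and 1 at 6 h were WT only. Thinning gave 1 lost by 6 h and 1 gained by 2 h at Nfkbiz, 2 WT only at 2 h and 0 KO only at 6 h. Leaving out each library gave at Nfkbia 1 to 3 gained by 6 h, 0 to 1 lost by 6 h and 0 to 1 gained by 2 h, and at Nfkbiz 0 to 1 lost by 6 h, gained by 2 h or lost by 2 h. It gave 1 to 2 KO only and 1 to 4 WT only at 0 h, 0 to 1 KO only and 1 to 2 WT only at 2 h, and 3 to 5 KO only and 0 to 4 WT only at 6 h. With 1 library fewer, a rule that asks for all and none is looser by construction.

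The percentile test of 6 h against 0 h called 3 regions lower ranked by fold and 0 by thinned coverage, and 0 to 1 without single libraries, and limma called 2 higher. At 2 h against 0 h limma called 1 lower. At 6 h against 2 h there were 0 higher ranked by fold, 1 by the mean over peaks, 1 by thinned coverage and 0 to 0 without single libraries, and limma called 1 lower. Neither by fold nor without single libraries did any region of the genome pass in that comparison. Ranked by fold, the difference at 2 h against 0 h at chr16:55838489-55839676 was -6.04, and that at 6 h against 2 h at chr16:55821556-55822875 was 2.70. For local background, no centring gave 0 lower at 6 h against 0 h and 0 higher and 0 lower at 6 h against 2 h, and limma gave 2 higher at 2 h against 0 h and 6 higher at 6 h against 2 h. Without single libraries there were 4 to 7 higher at 6 h against 0 h and 0 to 1 in each direction at 6 h against 2 h. For summit coverage, no centring gave 0 higher and 0 lower at 6 h against 0 h and 0 higher at 6 h against 2 h. Limma gave 3 higher and 3 lower at 6 h against 0 h and 1 lower at 6 h against 2 h. Without single libraries there were 0 to 1 in each direction at 6 h against 0 h and 0 higher at 6 h against 2 h, where no region of the genome passed either. The cause of these differences was not tested.

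Same-numbered libraries of different groups had correlations of -0.0134 to 0.0269 in their deviations (15 group pairs), so no shared deviation was seen. These values cannot show whether such libraries share an animal or culture, which the labels do not give. With the replicate number as a block, the percentile test called 0 lower at 6 h against 0 h (adjusted p = 0.0531 at chr12:56589607-56590274) and 0 higher at 6 h against 2 h. Local background had 4 higher at 6 h against 0 h and 0 in each direction at 6 h against 2 h, and summit coverage 0 higher at 6 h against 0 h and 0 at 6 h against 2 h. With this block no region of the genome passed at 6 h against 2 h in any of these measures.

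Of the values for single regions, 333 kept their direction and their side of the threshold, 131 lost the threshold, 4 gained it and 2 changed sign. Background coverage differs up to 3.35 against 1.43 reads between libraries, which limits what a missing call can show.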
